A study of Mus musculus with 6 samples.

Results

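The miR-34 family of the mouse comprises miR-34a-5p, miR-34b-5p and miR-34c-5p, and its 3 members were measured here among 1247 mouse miRNAs on Agilent miRNA arrays. Their probes were taken by name, as every probe whose annotated miRNA was one of the 3. The arrays held RNA of mProx24, a line of proximal tubular cells of mouse kidney (strain label C57B6), with 1 array per condition and 100 ng of RNA on each. The high glucose culture was kept at 20% oxygen, and no source used here gives its glucose concentration. The palmitate culture received 150 µM palmitate, a saturated fatty acid, for 9 h with 0.15% albumin at 20% oxygen. Hypoxia was 1% oxygen for 12 h. The triple stimuli culture was labelled with high glucose, palmitate and 1% oxygen together. The triple stimuli plus rapamycin culture also received 0.4 µg/ml of rapamycin, an inhibitor of the mTORC1 kinase complex, for 12 h before palmitate. The control culture was kept at 20% oxygen without these additions. The labels name albumin for cultures with palmitate and for no others, and the effects of the pair cannot be told apart.

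The transcription factor p53 is stabilised by DNA damage and other stress, and the genes of the miR-34 family are among the miRNA genes it activates most directly. The mature miRNAs in turn repress mRNAs of cell cycle and survival proteins, such as cyclin-dependent kinases, MET, BCL2 and the deacetylase SIRT1. miR-34a comes from a gene of its own and is made in most tissues, whereas miR-34b and miR-34c come from a shared primary transcript and are made mainly in lung, testis and other tissues with ciliated cells. In kidney tubules, p53 is known to be activated by ischaemia and by toxic injury, and miR-34a has been studied there as one of its outputs. The comparisons below address whether glucose, lipid and oxygen stress of these cells was accompanied by a change in that output. These arrays read miRNAs only, so p53 and its target mRNAs were not measured, and a steady miRNA level does not show that p53 was inactive.

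The sequences show what the probes could tell apart. The mature miR-34a-5p and miR-34b-5p are printed with those of miR-449a-5p and miR-449c-5p, their relatives by seed, from RefSeq (GRCm38.p6), with the seed, bases 2 to 8, in capitals.
mmu-miR-34a-5p: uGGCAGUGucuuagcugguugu
mmu-miR-34b-5p: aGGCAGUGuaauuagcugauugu
mmu-miR-449a-5p: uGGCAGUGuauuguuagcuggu
mmu-miR-449c-5p: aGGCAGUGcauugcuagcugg
The seed GGCAGUG is the part of a miRNA that pairs first with a target mRNA, and 4 of the 1679 mature mouse miRNAs searched, those of the RefSeq table, carry it. miR-34c-5p and miR-449b were not among the sequences searched, and the Mir34c hairpin printed below also holds GGCAGUG. miR-34a-5p lies at chr4:150068473-150068494 on the plus strand, in the gene Mir34a, which overlaps no other listed gene. miR-34b-5p lies at chr9:51103610-51103632 on the minus strand. Mir34b and Mir34c lie 451 bases apart on chromosome 9, both within the annotated genes Hoatz and Btg4. miR-449a-5p and miR-449c-5p lie on chromosome 13 at chr13:113037549-113037570 and chr13:113036008-113036028, both on the plus strand and within Cdc20b. Outside the seed the sequences differ: miR-34a-5p and miR-34b-5p share 19 of 23 aligned bases, and miR-34a-5p and miR-449a-5p share 17 of 23.

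The hairpin of Mir34c, at chr9:51103034-51103110 on the minus strand, is shown because it holds the stretch that the miR-34c-5p probes read, in capitals.
Mir34c hairpin: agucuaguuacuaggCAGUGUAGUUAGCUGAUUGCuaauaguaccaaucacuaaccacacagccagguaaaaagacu
Each member had 2 probes on the array, DNA oligos complementary to the 3′ end of the mature miR-34a-5p or miR-34b-5p. For miR-34c-5p the match was made to the hairpin only. The longer probe of each member reads 1 more base, shown in capitals.
mmu-miR-34a-5p shorter probe: acaaccagctaagacactg
mmu-miR-34a-5p longer probe: acaaccagctaagacactgC
mmu-miR-34b-5p shorter probe: acaatcagctaattacactgc
mmu-miR-34b-5p longer probe: acaatcagctaattacactgcC
mmu-miR-34c-5p shorter probe: gcaatcagctaactacact
mmu-miR-34c-5p longer probe: gcaatcagctaactacactG
The stretches read by the longer probes share 18 of 22 aligned bases between miR-34a-5p and miR-34b-5p, 16 of 21 between miR-34a-5p and miR-34c-5p, and 18 of 22 between miR-34b-5p and miR-34c-5p. The probes therefore read the 3′ parts in which the members differ as well as most of the seed that they share.

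A miRNA counted as detected on an array where at least 0.5 of the spots of any of its probes were flagged as well above background by the scanning software. By this rule 198 of the 1247 miRNAs were detected on at least 1 array and 154 on all 6, and the number per array was 189 under high glucose, 162 under palmitate, 172 under hypoxia, 185 under triple stimuli, 194 under triple stimuli plus rapamycin and 164 in the control. No spot was saturated. Of 5 miRNAs listed as marks of proximal tubule and kidney epithelium, miR-30a-5p and miR-10a-5p were detected and miR-192-5p, miR-194-5p and miR-204-5p were not, and 0 of 4 miRNAs listed for epithelium (miR-200a, miR-200b, miR-200c and miR-141) were. None of the 11 listed marks of blood, fibroblasts and smooth muscle, muscle, neurons and hepatocytes present on the array was detected. The oxygen labels were borne out by miR-210-3p, a miRNA induced by the hypoxia-inducible factor: its signal was 258 under hypoxia, 224 under triple stimuli and 232 under triple stimuli plus rapamycin, against 25.7 under high glucose, 20.0 under palmitate and 21.6 in the control.

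The labels of 2 arrays are in doubt. Columns of the authors' deposited table of processed values were compared with the scanner files' summed signals per miRNA, over miRNAs above the column's floor. Each column and file were allowed a shared factor between them. The high glucose column then matched the palmitate sample's scanner file for 70.9% of those miRNAs within 0.1%. The palmitate column matched the high glucose sample's scanner file for 70.6%, while the other columns fit their own files. For miR-34a-5p the table gives 9.37 for high glucose and 8.74 for palmitate. The values below follow the scanner files as deposited, and the differences of miR-34a-5p that rest on these 2 arrays are also given with their labels exchanged. For every other comparison of a single array with the control, an exchange passes the values given for high glucose to palmitate and those for palmitate to high glucose. The order of the levels changes places in the same way.

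miR-34a-5p was the one family member detected, and it was detected on all 6 arrays, with 240 of 240 spots well above background. The longer probe had a mean processed signal, in scanner units before any scaling, of 538.6 ± 41.5 under high glucose, 448.6 ± 29.0 under palmitate, 487.8 ± 27.8 under hypoxia, 522.7 ± 38.0 under triple stimuli, 563.4 ± 29.4 under triple stimuli plus rapamycin and 430.3 ± 37.3 in the control (SD between the spots of 1 array). The shorter probe had 366.8 under high glucose, 297.2 under palmitate, 326.0 under hypoxia, 346.5 under triple stimuli, 363.6 under triple stimuli plus rapamycin and 294.4 in the control. Both probes thus gave their lowest unscaled signals in the control and in palmitate, and the ranges of single spots of neighbouring conditions overlapped. The spread between spots was 5.22% to 8.68% of the mean for the longer probe and 4.61% to 8.24% for the shorter. The software's summed signal for miR-34a-5p, which combines both probes, was 256 ± 18.6 under high glucose, 211 ± 15.4 under palmitate, 230 ± 16.7 under hypoxia, 246 ± 17.9 under triple stimuli, 262 ± 19.1 under triple stimuli plus rapamycin and 205 ± 14.9 in the control, with the software's own error.

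**Figure D1:**
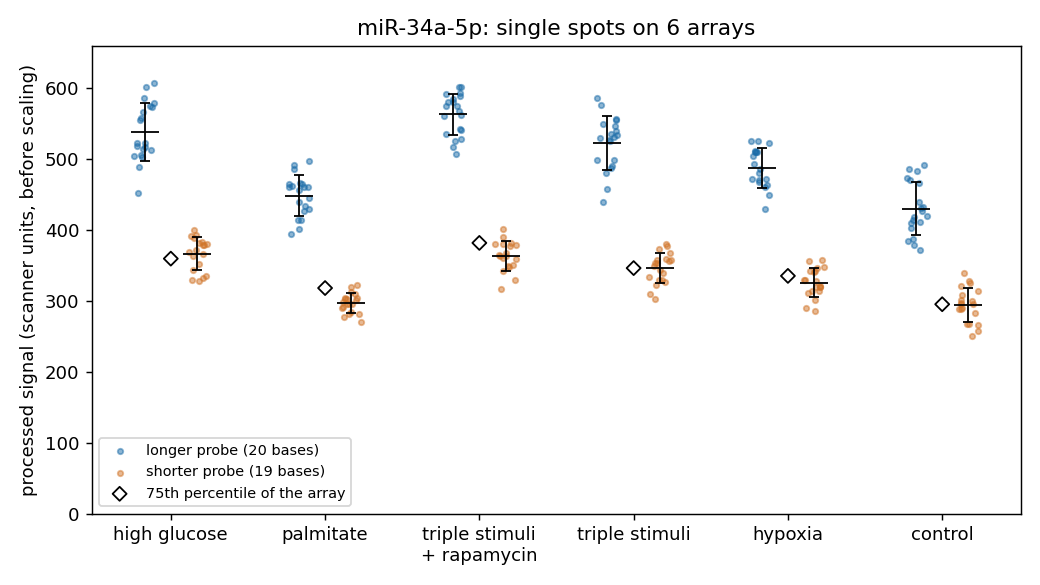
Processed signal of every spot of the longer and the shorter miR-34a-5p probe (scanner units, linear axis from 0) on the 6 arrays, with the mean and SD between spots as bars and the array's 75th percentile as a diamond. The longer probe averages 563.4 under triple stimuli plus rapamycin and 430.3 in the control, and the shorter probe lies close to the percentile on each array.

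Those unscaled signals moved with the general level of the detected miRNA probes. The 75th percentile of the 281 probes detected on all 6 arrays was 360 under high glucose, 318 under palmitate, 335 under hypoxia, 346 under triple stimuli, 382 under triple stimuli plus rapamycin and 295 in the control. Bright control probes named dmr did not share that rise in full. From the control to triple stimuli plus rapamycin, most of them rose by a smaller share than the percentile and the others fell. The largest relative rise was that of dmr_6_22, from 10918 to 12086, and the largest fall that of dmr_31a_19, from 342 to 308. After each array was divided by that percentile and returned to a shared scale, the log2 level of miR-34a-5p, by its longer and brighter probe, was 8.99 under high glucose, 8.90 under palmitate, 8.95 under hypoxia, 9.00 under triple stimuli, 8.97 under triple stimuli plus rapamycin and 8.95 in the control, with a standard error between spots of 0.02 to 0.03. The range over the 6 conditions was 0.10 on the log2 scale, or 1.07-fold. The order from high to low was triple stimuli, high glucose, triple stimuli plus rapamycin, control, hypoxia and palmitate, and no 2 neighbours in it differed by more than 2 standard errors between spots. The ends of the order did, with a gap of 0.10 (SE 0.03) between triple stimuli and palmitate. The shorter probe placed high glucose highest and palmitate lowest, with a gap of 0.13 (SE 0.03), and again no neighbours differed by more than 2 standard errors.

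Among the 154 miRNAs detected on all 6 arrays, miR-34a-5p had the fifth smallest SD over the conditions, 0.04 on the log2 scale, against a median of 0.12. This rank depended on the scaling, and the miR-34a-5p probes lie close to where the scale is set. The shorter probe was at 93.4% to 102% of the array's percentile and ranked 208 to 212 from the dimmest of the 281 probes, and in triple stimuli it was the percentile itself. The longer probe was at 141% to 151% of the percentile and ranked 224 to 229. With both probes left out of the percentile, the rank was 4 of 154. It was 2 with scaling to the median, 12 with the percentile taken over all probes, 33 after quantile normalisation, 68 after scaling to bright control probes and 72 without scaling. The range of miR-34a-5p over the conditions reached 0.39 on the log2 scale, or 1.31-fold, without scaling, and stayed below 1.5-fold under every other setting run.

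By its longer probe, miR-34a-5p differed by 0.05 or less in size (log2) in each of the 7 comparisons of 2 arrays. A miRNA was called where both arrays detected it and its difference reached 1.5-fold and exceeded 2 standard errors between spots, and miR-34a-5p was called in 0 of 7. With 1 array per condition there is no replicate check and no p-value for these differences, and their standard errors cover the spots of an array only. The 5 comparisons with the control share its single array.

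High glucose minus control was 0.04 (SE 0.04) for miR-34a-5p, against a median of -0.05 over 162 miRNAs, of which 6.79% were called. The level was 8.99 under high glucose and 8.95 in the control, so the difference was about its own spot error. With the labels of the doubtful arrays exchanged, the high glucose difference becomes the next one. Palmitate minus control was -0.05 (SE 0.03), against a median of -0.03 over 155 miRNAs, of which 2.58% were called.

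Hypoxia minus control was -0.0019 (SE 0.03), the smallest difference in size among the 162 miRNAs compared, of which 1.85% were called. The median miRNA of that comparison stood at -0.11, and 3 miRNAs were called lower and 0 higher. On the same hypoxia array miR-210-3p was detected, and on the control array it was not, so it could not be called here. Without scaling, the median miRNA stood at 0.08.

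Triple stimuli minus control was 0.05 (SE 0.04) for miR-34a-5p, with a median of 0.01 over 161 miRNAs, of which 5.59% were called. Triple stimuli plus rapamycin minus control was 0.02 (SE 0.03), with a median of -0.11 over 164 miRNAs, of which 9.15% were called. Neither difference exceeded 2 standard errors between spots by the longer probe. Set against hypoxia alone, triple stimuli gave 0.05 (SE 0.03), below the median of 0.10 over 171 miRNAs, of which 8.77% were called. Rapamycin, given only on top of the triple stimuli, gave -0.03 (SE 0.03) relative to triple stimuli, with a median of -0.07 over 184 miRNAs, of which 3.8% were called.

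The shorter probe gave 0.03 for high glucose, -0.09 for palmitate, -0.04 for hypoxia, 0.01 for triple stimuli and -0.07 for triple stimuli plus rapamycin, each minus the control. It gave 0.04 for triple stimuli minus hypoxia and -0.07 for triple stimuli plus rapamycin minus triple stimuli. By this probe, palmitate minus control and triple stimuli plus rapamycin minus control each exceeded 2 standard errors between spots (SE 0.03 each). So did triple stimuli plus rapamycin minus triple stimuli (SE 0.03), and the other differences did not. The 2 probes differed in sign for triple stimuli plus rapamycin minus control. The sign of each of the 7 differences turned under 2 to 5 of 6 other scalings. Those other than quantile normalisation shift every miRNA of an array by the same amount, so these turns describe the scaling of the array and not miR-34a-5p in particular, and no direction is read from these differences. Over the 13 other settings, 0 of 91 values passed 1.5-fold, and they ran from -0.19 to 0.39 on the log2 scale. Requiring detection on all 6 arrays and exchanging labels could not change some of these values.

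**Figure D2:**
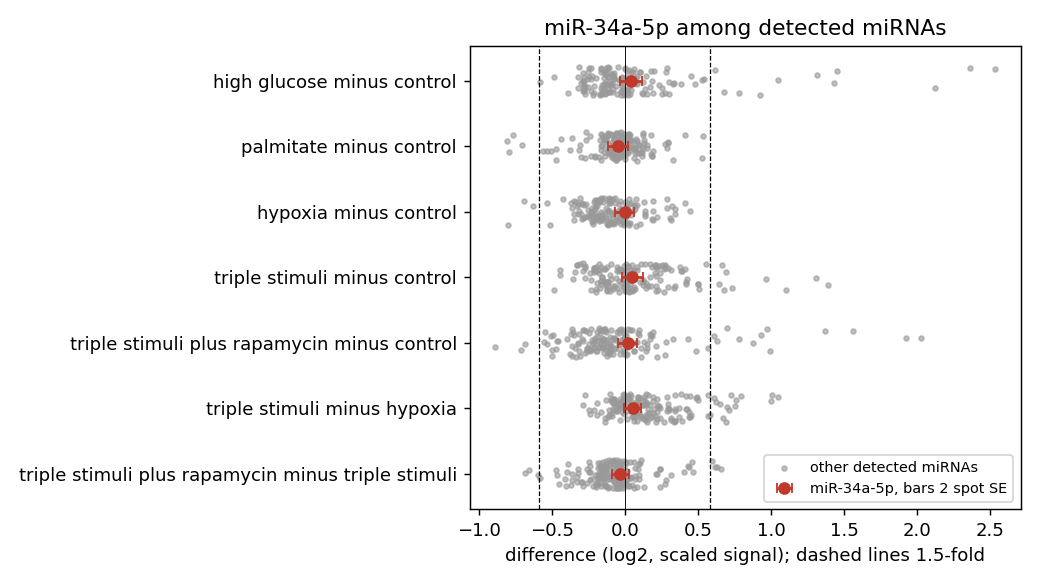
Difference in scaled signal (log2) of every miRNA detected on both arrays (grey points) and of miR-34a-5p (red points, bars of 2 standard errors between spots) in 7 comparisons of 2 arrays, with dashed lines at 1.5-fold. By its longer probe, miR-34a-5p lies between -0.05 and 0.05 in each comparison, inside the dashed lines.

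Arrays that share a factor were also set against the others, 3 against 3, with limma across the 154 miRNAs detected on all 6 arrays. The arrays of one side differ in their other treatments, so these are contrasts between mixed groups. The smallest p-value that an exact permutation of 3 against 3 can give is 0.1. The position of the arrays on the slide divides them the same way as oxygen, so slide row and oxygen cannot be told apart.

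At 1% oxygen miR-34a-5p averaged 8.97 ± 0.03, and at 20% oxygen 8.95 ± 0.04 (log2, SD, n = 3 each), and the groups overlapped, against 11% of miRNAs whose groups did not. The difference was 0.03 (limma, SE 0.06, Benjamini-Hochberg adjusted p = 0.963, exact permutation p = 0.5, two-sided), with a 95% interval of 0.920-fold to 1.12-fold. Limma called 0 of 154 miRNAs in this contrast, or 0%, with 7 at an unadjusted p under 0.05. miR-210-3p was outside these 154, since the control and palmitate arrays did not detect it, so it could not be called. Over the 198 miRNAs detected on at least 1 array, limma called 1, higher at 1% oxygen. The sign for miR-34a-5p turned when the arrays were scaled to the median or to all probes. In the palmitate contrast, miR-34a-5p averaged 8.96 ± 0.05 on arrays with palmitate and 8.96 ± 0.02 on arrays without it (SD, n = 3 each), with a difference of -0.0052 (limma, SE 0.06, adjusted p = 0.977, exact permutation p = 1) and an interval of 0.896-fold to 1.11-fold. Limma called 0 of 154 miRNAs, or 0%, with 5 at an unadjusted p under 0.05. The groups overlapped, against 7.79% of miRNAs whose groups did not, and with the 2 doubtful labels exchanged the difference was 0.05.

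The arrays labelled with high glucose were those of high glucose, triple stimuli and triple stimuli plus rapamycin. On them miR-34a-5p averaged 8.99 ± 0.02, against 8.93 ± 0.03 on the others (log2, SD, n = 3 each). The 3 levels with high glucose lay between 8.97 and 9.00 and the 3 without it between 8.90 and 8.95, so the groups did not overlap, as was the case for 29.2% of the 154 miRNAs. The difference was 0.05 (limma, SE 0.06, adjusted p = 0.762, exact permutation p = 0.1, the smallest possible), with an interval of 0.942-fold to 1.14-fold. Limma called 9.74% of the miRNAs in this contrast, 13 higher and 2 lower, and miR-34a-5p was not among them. The balance of the calls followed the scaling, with 8 higher and 31 lower after scaling to the median, 6 higher and 19 lower after quantile normalisation and 48 higher and 0 lower without scaling. Those 15 calls became 5 without the control array, 6 without the hypoxia array and 1 without the array of triple stimuli plus rapamycin, and 30 miRNAs had an unadjusted p under 0.05. Exchanging the doubtful labels turns this contrast and the palmitate contrast into each other, with their counts, lists and shares, so that 0 miRNAs were called for high glucose and the difference of miR-34a-5p was -0.0052.

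This contrast depended on the scaling in sign and in call. The difference of miR-34a-5p was 0.25 without scaling (limma adjusted p = 0.0414) and 0.24 after scaling to the bright control probes (adjusted p = 0.0470), while the median of all 154 miRNAs was 0.22 and 0.20 under these settings. It was -0.11 with scaling to the median (median miRNA -0.15, limma adjusted p = 0.134), -0.05 with the percentile over all probes (-0.09, adjusted p = 0.881) and -0.15 after quantile normalisation (-0.12, adjusted p = 0.0773). Each of these scalings other than quantile normalisation adds 1 constant per array to every miRNA, so the gap between miR-34a-5p and the median miRNA, 0.04, cannot change under them. After quantile normalisation, which can change it, the gap was -0.03. Under the 75th percentile, no interval of the 3 contrasts reached 1.5-fold.

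**Figure D3:**
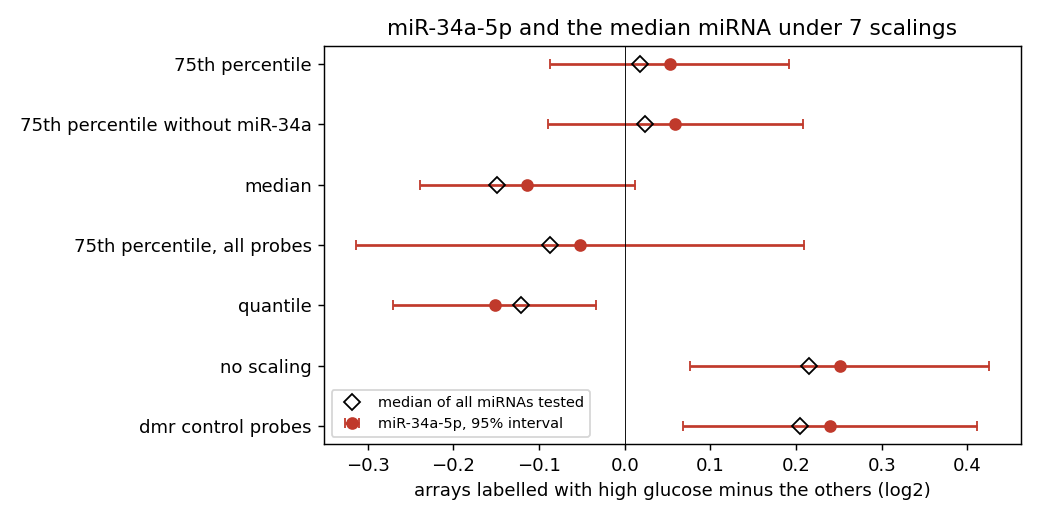
Difference between the arrays labelled with high glucose and the others (log2) for miR-34a-5p, with its 95% limma interval, and for the median of 154 miRNAs, under 7 scalings. The point of miR-34a-5p moves between -0.15 after quantile normalisation and 0.25 without scaling, and the median moves with it.

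miR-34b-5p was not detected on any array, with 0 of 240 spots well above background. Its longer probe had a mean signal of 6.25 under high glucose, 4.77 under palmitate, 6.88 under hypoxia, 6.87 under triple stimuli, 7.03 under triple stimuli plus rapamycin and 4.93 in the control. Its shorter probe lay between 1.04 and 2.33. The 7 negative-control probes of the arrays, with 1000 spots on each array, averaged 3.34 to 6.07, and the lowest signals of any detected probe were 19.5 to 21.97. The longer probe thus stood at 21.8% to 36.1% of the lowest detected signal of its array, and it was above the whole range of negative controls on the hypoxia, triple stimuli and triple stimuli plus rapamycin arrays as well as on the high glucose array. Among the 2739 probes not detected on any array it lay at percentile 90.7 to 92.7. Its summed signal was 1.69 to 2.65, with a software error of 1.81 to 1.92.

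miR-34c-5p, which is transcribed together with miR-34b, was likewise not detected, with 0 of 240 spots well above background. Its longer probe lay between 0.84 and 2.30 and its shorter between 0.27 and 2.70, both below the lowest negative control on each array. Its summed signal was 0.52 to 1.08. Neither miRNA has a fold change here, since no array measured either, and whether a low level changed between conditions was not detectable. A stricter rule (0.9 of the spots), a looser one (any spot) and the software's own flag per miRNA gave the same detection for all 3 members, on 6, 0 and 0 arrays. In the authors' deposited table both miRNAs are at the floor in every column.

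**Figure D4:**
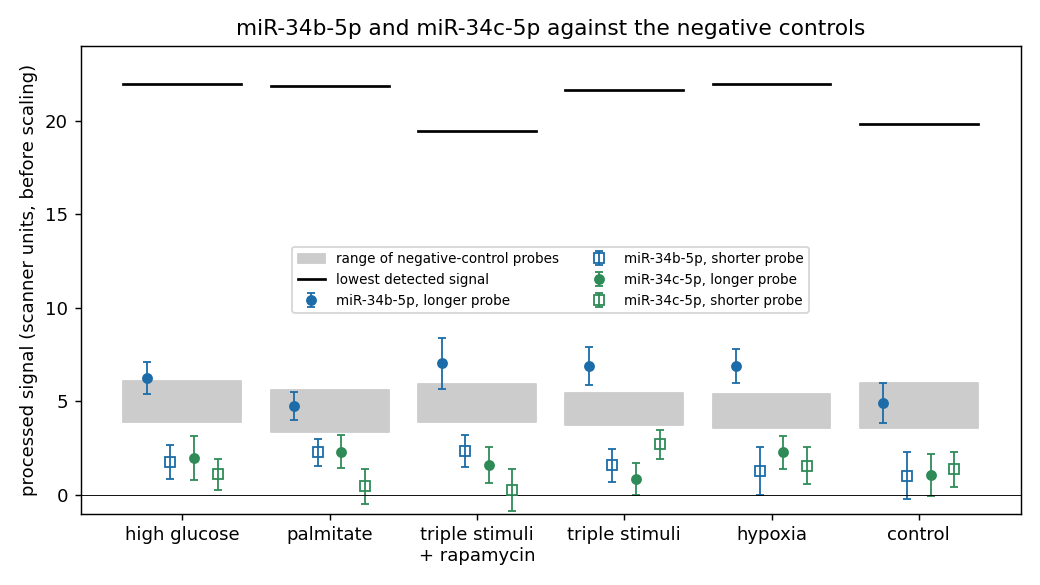
Mean processed signal (scanner units, before scaling; bars are standard errors between spots) of the miR-34b-5p and miR-34c-5p probes on the 6 arrays, with the range of the 7 negative-control probes as a grey band and the lowest detected signal of each array as a black line. Each of the 4 probes lies below the black line on every array, the longer miR-34b-5p probe reaching 7.03 where that line is at 19.5.

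The other products of these hairpins and the seed relatives were also below detection. The opposite arms miR-34a-3p and miR-34c-3p had 0 of 240 spots well above background, and miR-34b-3p had 1 of 240. Of the miR-449 miRNAs, which like miR-34b and miR-34c are typical of ciliated cells, miR-449a-5p, miR-449c-5p, miR-449a-3p and miR-449c-3p had 0 and miR-449b had 2 of 240 spots. The longer miR-449a-5p probe, whose target shares the seed with miR-34a-5p, had a signal of 2.03 to 5.84. It was above the highest negative control of its array under triple stimuli (5.84, against 5.44). The longer miR-34b-5p probe, described above, was so on 4 arrays, and neither relative met the detection rule on any array.

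Other miRNAs tied to p53 were compared in the same way. Of 14 miRNAs reported as raised by p53 or processed with its help, 13 were on the array, and miR-15a-5p, miR-16-5p, miR-22-3p, miR-103-3p and miR-107-3p were detected on all 6. miR-15a and miR-16 restrain cyclins and BCL2, and miR-107 has been described as a p53-induced repressor of hypoxia signalling. A call needed detection on both arrays, which miR-149-3p, described below, met only in triple stimuli plus rapamycin minus triple stimuli. None of the list members detected on both arrays was called in the 7 comparisons of 2 arrays. In these, 1.85% to 9.15% of all miRNAs compared were called, so that 0 of 5 or 6 is near the background. The median differences of the list were -0.09 for high glucose, -0.14 for palmitate, -0.04 for hypoxia, 0.02 for triple stimuli and -0.13 for triple stimuli plus rapamycin, each minus the control, beside -0.05, -0.03, -0.11, 0.01 and -0.11 over all miRNAs compared. The lowest value against the control was that of miR-103-3p in each of the 5 conditions, between -0.12 under hypoxia (SE 0.03) and -0.23 under triple stimuli plus rapamycin (SE 0.03). The highest belonged to miR-15a-5p for high glucose (0.02) and to miR-16-5p for the other conditions, at most 0.05. All these values share the single control array. Scalings that shift every miRNA of an array by the same amount move them too, so no direction is read from them. The range of miR-16-5p over the conditions, 0.08 on the log2 scale, was the smallest of the list, against a median range of 0.32 over all 154 miRNAs.

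miR-149-3p, which has been described as a p53-responsive miRNA that represses the kinase GSK3A in human melanoma cells, was the one list member detected on some arrays and not on others by the share of spots. The software's own flag per miRNA marked it as detected on all 6 arrays, so the contrast between detected and not detected, and the bounds below, rest on the rule used here. Its mean signal was 84.7 under high glucose, 48.4 under triple stimuli and 71.8 under triple stimuli plus rapamycin, where it was detected, against 15.9 under palmitate, 20.2 under hypoxia and 17.5 in the control, where it was not. It was at least 3.51-fold higher in high glucose, 2.08-fold higher in triple stimuli and 2.80-fold higher in triple stimuli plus rapamycin than in the control, and at least 2.14-fold higher in triple stimuli than in hypoxia. These are the arrays labelled with high glucose, and they are also the 3 on which most miRNAs were detected (185 to 194, against 162 to 172). The part of that wider detection in the result was not tested, and with the doubtful labels exchanged the value of high glucose belongs to palmitate. Triple stimuli plus rapamycin minus triple stimuli was 0.43 (SE 0.06), short of 1.5-fold. The shares of called miRNAs given above cover miRNAs detected on both arrays, so they are no background for the bounds. The share of all miRNAs that pass such a bound is not given here.

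The other 7 miRNAs of that list with probes were not detected on any array, namely miR-141-3p, miR-143-3p, miR-145a-5p, miR-192-5p, miR-194-5p, miR-200c-3p and miR-215-5p. They include miR-192, miR-194 and miR-215, which p53 induces in human cells and which are abundant in kidney. Of 6 miRNAs reported to repress the p53 mRNA, miR-25-3p, miR-30d-5p, miR-125a-5p and miR-125b-5p were detected on all 6 arrays and miR-33-5p and miR-504-5p on none. None of the 4 was called in any of the 7 comparisons, again near the background of 1.85% to 9.15%, and their 28 differences ran from -0.28, for miR-125a-5p in high glucose minus control, to 0.15, for miR-25-3p in triple stimuli plus rapamycin minus control. In the 3 limma contrasts, which did not include miR-149-3p, 0 of 5 and 0 of 4 members of these lists were called. Their lowest limma adjusted p was 0.283. Of all 154 miRNAs, limma called 0% in the oxygen and palmitate contrasts and 9.74% in the high glucose contrast, and the lists' counts are near these shares.

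**Figure D5:**
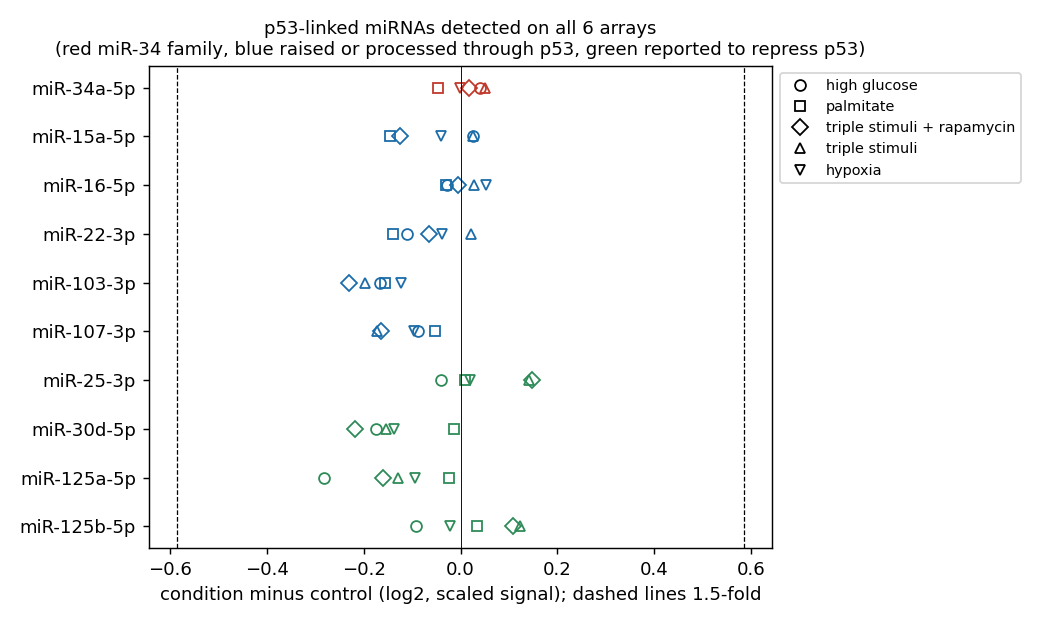
Difference from the control (log2, scaled signal) of miR-34a-5p and of 9 p53-linked miRNAs detected on all 6 arrays, with 1 symbol for each of the 5 conditions and dashed lines at 1.5-fold. All points lie between -0.28 and 0.15, inside the dashed lines.

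The miRNAs whose levels followed miR-34a-5p most closely over the 6 arrays, by Pearson correlation of the log2 levels among 153 others, were miR-21a-5p (r = 0.92), miR-6368 (0.92), miR-1906 (0.85), miR-29a-3p (0.82) and miR-3473e (0.82). The median correlation with miR-34a-5p was 0.24. All values share the 6 arrays and their scaling, and miR-34a-5p itself moved by only 0.10, against 0.35 for miR-21a-5p and 1.03 for miR-6368. miR-21a-5p, an abundant miRNA raised in many forms of tissue injury, was at 11.67 under high glucose, 11.34 under palmitate, 11.55 under hypoxia, 11.70 under triple stimuli, 11.51 under triple stimuli plus rapamycin and 11.42 in the control (log2).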

How the data were processed

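Per the labels, total RNA of mProx24 cells was labelled with Cy3 and hybridised to Agilent miRNA arrays, 1 per condition. Per the submitters' processing notes and the file headers, Agilent Feature Extraction 10.7.3.1 made the scanner files. The deposited processed signal of each spot and the deposited summed signal per miRNA are intensity values on a linear scale, background-subtracted and not normalised between arrays. The deposited table holds a linear intensity per miRNA, divided by a factor whose choice no source used here gives; its column floors run from 0.00341 to 0.00475, and it was used as an alternative only.

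Spots flagged as outliers were left out and the others averaged per probe. Arrays were scaled to the 75th percentile of 281 probes detected on all 6 arrays, floored at the lowest detected signal and moved to log2, and the brightest probe stood for a miRNA. Limma 3.58.1 in R 4.3.3 (lmFit, eBayes, Benjamini-Hochberg, threshold 0.05) gave the contrasts and was also run on simulated arrays. Their noise was independent between arrays, without the mixed treatments of the real groups, so that run is no check of this design. Alternatives changed detection, background, scaling, summary, spots, labels and the arrays used. Scaling to bright control probes named dmr and to the percentile without miR-34a-5p was chosen after seeing the data. The members and lists were chosen with earlier results of these data known. Values are named for all members, their opposite arms, the miR-449 miRNAs, list members past 1.5-fold or at either end of a list, and the 5 closest correlations. The number of arrays limits the precision. RefSeq sequences and genes were matched by name, and no genome was used.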

Additional observations from a re-analysis of the deposited data

How the results depend on the processing

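Detection of the 3 members was the same under all 4 rules. The range of miR-34a-5p over the conditions (0.10, log2) was 0.24 with the percentile over all probes, 0.26 after quantile normalisation, 0.39 without scaling and 0.36 after dmr scaling. Of the 91 differences of 2 arrays under other settings, 79 moved by less than the spread over all miRNAs. The other 12 were, without scaling, high glucose 0.32, hypoxia 0.18 and triple stimuli plus rapamycin 0.39, each minus control, and triple stimuli plus rapamycin minus triple stimuli 0.11; with dmr scaling, high glucose 0.23 and triple stimuli plus rapamycin 0.34, each minus control; with all probes, palmitate minus control 0.14 and triple stimuli plus rapamycin minus triple stimuli 0.20; after quantile normalisation, high glucose minus control -0.17 and triple stimuli minus hypoxia -0.19; and triple stimuli minus hypoxia -0.15 with the median and -0.16 in the deposited table.

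In the limma contrasts, the oxygen difference was -0.0403 with all probes and -0.0460 with the median. The count of called miRNAs there was 1 in the deposited table and 1 over miRNAs detected on at least 1 array. The high glucose difference was -0.0522 with all probes, -0.11 with the median, -0.15 after quantile normalisation, -0.0052 with labels exchanged, -0.0520 in the deposited table, 0.25 without scaling and 0.24 with dmr scaling. Its 15 calls became 9 with normexp background, 39 with the median, 25 after quantile normalisation, 48 without scaling, 43 with dmr scaling, 0 with labels exchanged and 0 in the deposited table. The palmitate difference was 0.0633 with all probes, 0.0749 without scaling, 0.0228 with summed signals, 0.0528 with labels exchanged, 0.0675 with dmr scaling and 0.0017 with the percentile without miR-34a-5p, and its count was 15 with labels exchanged and 35 in the deposited table. In the deposited table the high glucose and palmitate columns fit each other's scanner files, so its values here also carry exchanged labels. The part of that exchange in its values, and the cause of the other changes, were not tested.

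Leaving out each array in turn gave 0.0027 to 0.0461 for oxygen, 0.0373 to 0.0618 for high glucose and -0.0271 to 0.0221 for palmitate, with adjusted p no lower than 0.666. The palmitate difference turned positive without the high glucose array (0.0084) and without the palmitate array (0.0221). The counts were 0 for oxygen and palmitate and 1 to 15 for high glucose: 5 without the control array, 6 without the hypoxia array and 1 without the array of triple stimuli plus rapamycin. No paired analysis was possible because each condition has 1 array and the labels give no shared replicate numbers. One array per condition, and signals of miR-34b-5p and miR-34c-5p below the detection rule, limit these data.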

Other observations

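The positions that the scanner files give for probes on the minus strand do not lie on the mature miRNA. The file headers name the build mm9. Even so, of the positions listed within the hairpins for 1305 probes of plus-strand miRNAs, 99.85% lay on the mature miRNA in RefSeq (GRCm38.p6). Of the positions listed for 978 probes of minus-strand miRNAs, 0.2026% did, and 99.7% lay at the mirrored place within the hairpin. For miR-34b-5p the files give 51103577 to 51103597 on chromosome 9 for the longer probe, against 51103610 to 51103632 for the mature miRNA in RefSeq. The probe sequences themselves are complementary to the mature miR-34a-5p and miR-34b-5p. Those of miR-34c-5p, whose mature sequence was not among those searched, are complementary to the Mir34c hairpin. The probes were taken by name, so the values of the members are not touched by the positions.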
